A study of Mus musculus with 17 samples.

Results

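The 86 protein-coding genes whose symbols mark them as cytosolic ribosomal proteins (Rpl, Rps or Rplp with a number, and Rpsa, without pseudogene symbols and without the Rps6k kinases) were described in the left ventricular apex of mice, out of 21798 genes listed. They hold 77 core ribosomal proteins, of which 46 belong to the large and 31 to the small subunit, and 9 other genes. The latter are the paralogues Rpl3l, Rpl22l1, Rpl36al, Rpl39l and Rps27l, the retrogenes Rps27rt and Rps23rg1, the assembly protein Rpl7l1 and the binding protein Rps19bp1. All animals were male C57Bl6/J mice, 7 to 8 weeks old. They underwent transverse aortic constriction (TAC), which narrows the aorta and overloads the left ventricle with pressure, or Sham surgery. From 1 week later they received 6 oral gavages of either the integrin αvβ3-specific prodrug 29P at 50 µg/kg or volume-matched saline (Veh), and tissue was taken 3 weeks after surgery. The 17 libraries, 1 per mouse, come from 5 mice with Sham and Veh, 3 with Sham and 29P, 3 with TAC and Veh (TAC Veh), and 6 with TAC and 29P. They are named here by the S number in their labels (S1 to S20). Levels are CPM, counts scaled to the same total in each library, as the authors deposited them.

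Cytosolic ribosomes translate the mRNAs of nuclear genes, and each consists of a small subunit that reads the mRNA and a large subunit that joins the amino acids. Most ribosomal proteins are present in equal numbers in each ribosome. Their mRNAs begin with a pyrimidine-rich TOP tract through which mTORC1 signalling controls their translation. Heart muscle additionally makes Rpl3l, a paralogue of Rpl3 that is largely restricted to striated muscle and can replace Rpl3 in the large subunit. Growth of the heart under pressure overload involves more protein synthesis, so ribosomal protein mRNA was compared between Sham and TAC and between Veh and 29P.

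Most ribosomal protein genes have processed pseudogenes of nearly the same sequence, and these took up a large part of the signal. A search of the GENCODE vM21 transcripts found 373 copies of 77 members, defined by at least 90% identity over at least 50% of the member's coding bases. Only 36.5 to 40.2% of the CPM of members and copies together lay on the members in the 17 libraries. The following stretch of 60 coding bases, bases 28 to 87, is shown for Rpl3 (chromosome 15, 80077791 to 80091868, minus strand, mm10) and Rpl3l (chromosome 17, 24727820 to 24736143, plus strand), together with the aligned bases of Rpl3-ps1, because these 3 sequences decide how the Rpl3 pair can be read. Capitals mark bases that differ from Rpl3.
Rpl3: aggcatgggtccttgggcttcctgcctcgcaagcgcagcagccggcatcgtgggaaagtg
Rpl3-ps1: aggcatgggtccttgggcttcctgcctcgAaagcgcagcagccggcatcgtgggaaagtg
Rpl3l: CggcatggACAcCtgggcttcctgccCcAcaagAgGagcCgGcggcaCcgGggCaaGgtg
Rpl3-ps1 differed from Rpl3 at 1 of these bases, and at 2 of 1210 bases over its whole length. Rpl3l differed at 15 of the 60 bases and was 76.3% identical to Rpl3 over 1199 aligned coding bases. Reads of Rpl3 and Rpl3-ps1 can therefore hardly be told apart, and reads of Rpl3l can be.

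The pseudogene Rpl3-ps1 on chromosome X had a mean of 194.7 CPM against 24.98 CPM for Rpl3 itself, which held 11.2% of its family. Rpl10, a large-subunit protein close to the tRNA sites, had 6.22 CPM, while the single-exon Rpl10-ps3, which matches it in all of 740 aligned bases, had 289.8 CPM. For Rpl5, which binds 5S rRNA together with Rpl11, 9.24 CPM lay on the gene and 440.7 CPM on 3 copies. Rps27 had 0.50 CPM, and its retrogene Rps27rt, with identical coding bases (0 mismatches in 252), had 176.5 CPM. The first 60 coding bases of both are shown for this identity.
Rps27: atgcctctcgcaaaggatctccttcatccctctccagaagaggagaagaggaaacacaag
Rps27rt: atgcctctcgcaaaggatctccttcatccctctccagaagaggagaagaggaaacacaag
Under 10% of the family lay on the member for 16 members, and over 90% for 19. The latter include Rpl4 (93.0%) and Rps3 (99.7%), and Rpl3l and Rpl8, for which no copy was found. They also include Rps27 and Rps27rt, because members were not searched as copies of each other. Sums with copies therefore leave Rps27 apart from Rps27rt. Across the members with copies, the median share on the member was 27.3%. Values of a member with a small share may thus hold only a part of its reads. Whether CPM on a copy come from the member or from the copy itself was not tested. For several such members, values with copies summed are given as well.

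**Figure D1:**
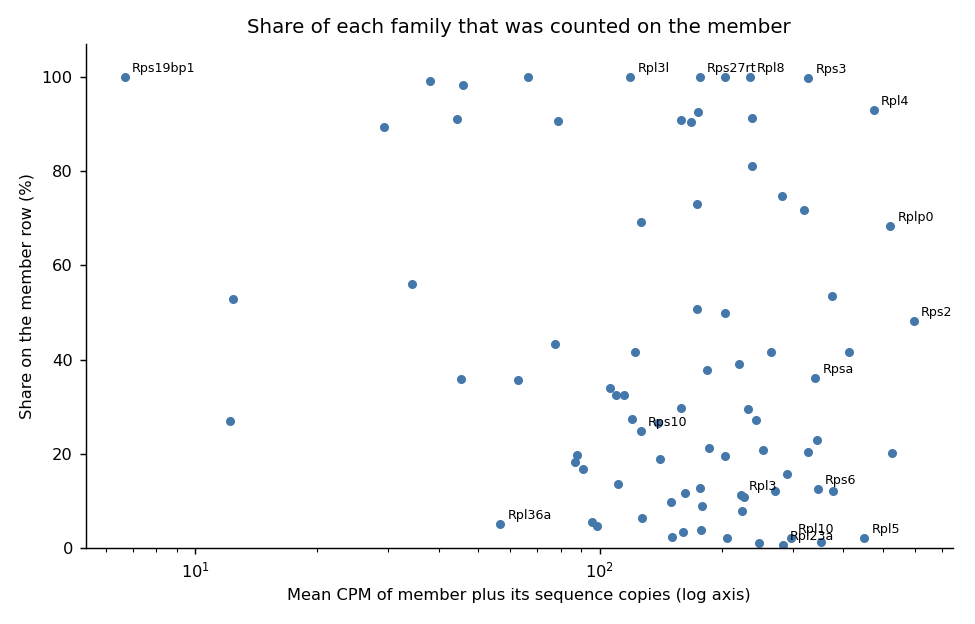
Each point is a member with at least 1 CPM in member and copies together. The x axis is the mean CPM of the member plus its sequence copies on a log axis, and the y axis the share of this sum that lies on the member row in percent. Rpl5, Rpl10 and Rpl23a lie near the bottom at 2.05, 2.10 and 0.57%, and Rpl4 and Rps3 near the top.

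Levels on the member rows alone, without copies, differed widely between members. Per kilobase of annotated exon, the mean over all libraries was highest for Rps27rt (471.8 CPM per kb), followed by Rps15 (344.0) and the P-stalk protein Rplp1 (255.3), and lowest for Rpl39l (0.12 CPM per kb), a paralogue of Rpl39 known from testis. The stalk of the large subunit, which recruits elongation factors, is built from Rplp0, Rplp1 and Rplp2. Its genes had a mean of 357.4, 127.4 and 37.3 CPM on the member rows, and of 522.8, 174.3 and 114.8 CPM with copies summed. Rpl39l and Rps23rg1, with means of 0.10 and 0.11 CPM, did not reach 0.5 CPM in at least 3 libraries, which left 84 members to be tested.

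Some libraries stood apart. Estimated depth was 14.2 to 23.8 M reads, lowest in Sham 29P S14, in which 3567 genes were listed at 0 against 1410 to 2754 in the others. The atrial genes Sln, Myl7, Myl4 and Bmp10 summed to 2543 CPM in Sham Veh S19, 2032 in Sham Veh S20 and 1529 in TAC 29P S18, and to at most 5.75 CPM in the other 14 libraries of this ventricular tissue. S18, S19 and S20 also make up a run of nearby numbers in the column names. This run holds no Sham 29P or TAC Veh library, so it cannot be told apart from the atrial transcripts. Genes encoded by mitochondrial DNA took 29.1 to 40.0% of the CPM in Sham and 23.6 to 29.4% in TAC libraries, and the CPM of all other genes are relative to a total that holds them. TMM factors, which centre the bulk of genes, were used beside total scaling. Summed markers of fibroblasts were at 828 to 1529 CPM in Sham and 1411 to 3216 CPM in TAC libraries, and of macrophages at 217 to 441 and 480 to 786 CPM. Of 8 markers each of fibroblasts, macrophages and endothelial cells, 5, 8 and 2 rose between Sham Veh and TAC Veh (limma adjusted p of 0.05 or less, 22.5% of all genes). With TMM factors 3, 2 and 0 rose (3.87% of all genes). Between Sham 29P and TAC 29P 7, 8 and 6 rose (31.4% of all genes), and 4, 6 and 0 with TMM factors (5.74%). The part of these other cell types in the results below was not tested, and in bulk tissue fewer cells of a type cannot be told from less RNA per cell.

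The 86 members together took 0.376 to 0.810% of the CPM of a library. In Sham Veh, their summed level was 5360 CPM in S5, 6204 in S6, 6027 in S13, 7242 in S19 and 7578 in S20. In Sham 29P it was 5572 in S4, 3765 in S14 and 5435 in S15, and in TAC Veh 7256 in S2, 6123 in S12 and 6697 in S16. The 6 TAC 29P libraries ranged from 6055 to 8099 CPM around a median of 6392. The 3 Sham 29P libraries included the lowest of all, and the 2 Sham Veh libraries with atrial transcripts lay above the other 3 of their group. The Sham Veh mean was 6482 ± 911 CPM (SD, n = 5). For Sham 29P it was 4924 ± 1006 CPM (SD, n = 3). The TAC Veh mean was 6692 ± 567 CPM (SD, n = 3), and that of TAC 29P was 6652 ± 772 CPM (SD, n = 6). Without S19 and S20 the Sham Veh mean was 5864 ± 445 CPM (SD, n = 3), and S6 was then the only library of the group above the lowest TAC Veh library.

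**Figure D2:**
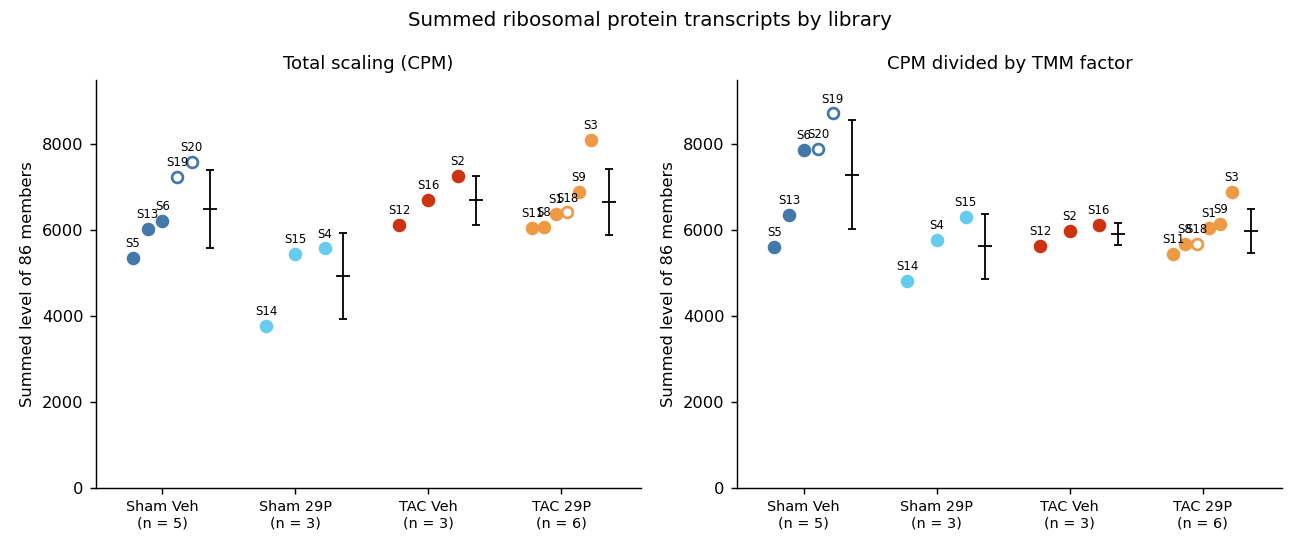
Summed level of the 86 members in each library, as CPM (left) and as CPM divided by the TMM factor (right). Filled and open points are single libraries, open where atrial transcripts were present (S18, S19, S20), and bars are mean and SD. With TMM factors the Sham Veh mean was 7287 ± 1264 and the TAC Veh mean 5915 ± 253, so the order of these groups is turned by the scaling.

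Dividing by the TMM factors turned the order of the Veh groups. The scaled sum of Sham Veh was then 7287 ± 1264 (SD, n = 5) and that of TAC Veh 5915 ± 253 (SD, n = 3). Sham 29P had 5626 ± 754 (SD, n = 3) and TAC 29P had 5981 ± 512 (SD, n = 6). Without the libraries with atrial transcripts, the Sham Veh value was 6610 ± 1144 (SD, n = 3). Members and copies together made up 1.71 ± 0.27% of the CPM of Sham Veh (SD, n = 5) and 1.73 ± 0.16% of that of TAC Veh (SD, n = 3). They made up 1.28 ± 0.23% for Sham 29P (SD, n = 3) and 1.72 ± 0.22% for TAC 29P (SD, n = 6), so the order of the groups was close to that of the members alone. These sums are descriptions and were not tested.

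To ask what pressure overload does to ribosomal protein mRNA without treatment, TAC Veh was compared with Sham Veh. According to the paper, a further TAC Veh library was left out because it clustered with Sham mice. The TAC Veh group was thus chosen partly by its expression, which limits each comparison with it. Of the 84 members tested, 1 rose (Rpl3) and 1 fell (Rpl3l) at an adjusted p of 0.05 or less in limma, while 22.5% of the 16218 genes tested rose and 1.91% fell. At an unadjusted p of 0.05 or less 6 members were higher and 1 lower, against 37.4 and 3.48% of genes. The median log2 fold change of the members was 0.08, beside 0.35 over all genes, with 51 members above and 33 below 0. With TMM factors the median of all genes was 0.01 and that of the members −0.26, and 0 members rose and 2 fell (Rpl3l and Rpl36), at backgrounds of 3.87 and 5.8%. At an unadjusted p of 0.05 or less 27 were then lower, against 14.1% of genes. Without the 3 libraries with atrial transcripts the median of the members was 0.20, and −0.14 with TMM factors, where 2 were lower at an unadjusted p of 0.05 or less, against 11.6% of genes.

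Rpl3, a core protein near the peptidyl transferase centre, was at 17.7, 15.8, 19.2, 24.2 and 26.7 CPM in Sham Veh (S5, S6, S13, S19, S20) and at 41.3, 25.6 and 33.2 CPM in TAC Veh (S2, S12, S16). The ranges overlapped only through S20, which lay above S12. Its log2 fold change was 0.69 (SE 0.21, limma adjusted p = 0.0286). The exact two-sided permutation test over 56 splits, which cannot go below 0.0179, gave p = 0.0536. With copies summed, Rpl3 was at 150.4, 154.6, 166.7, 243.1 and 230.9 CPM in Sham Veh and 354.7, 232.0 and 284.8 in TAC Veh, with a log2 fold change of 0.63 (limma adjusted p = 0.0325). The change was 0.90 without the libraries with atrial transcripts (limma adjusted p = 0.0223) and 0.35 with TMM factors, where it missed the threshold (limma adjusted p = 0.216). It also missed it with mitochondrial genes left out of the total, at 0.53 (limma adjusted p = 0.0666), without S2, at 0.52 (limma adjusted p = 0.177), without S6, at 0.60 (limma adjusted p = 0.0660) and without S16, at 0.68 (limma adjusted p = 0.0718).

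Rpl3l moved the other way. It was at 146.8, 111.6, 159.1, 103.8 and 154.7 CPM in Sham Veh and at 86.6, 114.1 and 75.4 CPM in TAC Veh. S12 was the TAC Veh library closest to Sham for both genes. The log2 fold change of Rpl3l was −0.55 (SE 0.19, limma adjusted p = 0.0410, exact permutation p = 0.0714) and −0.89 with TMM factors (limma adjusted p = 0.0035). Without the libraries with atrial transcripts it had −0.60 (limma adjusted p = 0.0552). Dividing by TMM factors there gave −0.94 (limma adjusted p = 0.00972). Leaving out S5, S13, S20, S2 or S16 gave values from −0.52 to −0.42 and adjusted p from 0.0607 to 0.156. Over the 17 libraries, the genes most like Rpl3l by Pearson's r of log2 CPM were Sdhc (r = 0.96), Uqcrfs1 (0.94) and Hadh (0.94), which encode a subunit of respiratory complex II, the Rieske protein of complex III and a fatty acid oxidation enzyme. For Rpl3 the genes most like it were Arpc1b (0.985), Cfl1 (0.982) and Rpl3-ps1 (0.979), and its r with Rpl3l was −0.43. The 17 points share group, depth and base composition, so the r are given as a description. Of 10 cardiomyocyte markers, 1 fell and 0 rose in TAC Veh against Sham Veh at the adjusted threshold, against 1.91 and 22.5% of genes. Their median log2 fold change was −0.19. With TMM factors 4 fell, against 5.8% of genes, with a median of −0.53. The part of these markers in the fall of Rpl3l was not tested.

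The other paralogues did not pass the test in this comparison with all libraries and total scaling. Rpl22l1, the paralogue of the RNA-binding protein Rpl22, was at 13.6, 29.2, 17.8, 36.04 and 27.7 CPM in Sham Veh and at 15.1, 11.6 and 18.9 CPM in TAC Veh, with a log2 fold change of −0.65 (SE 0.32, limma adjusted p = 0.135). Leaving out single libraries gave −0.85 to −0.47 for Rpl22l1. Without S5, 1 member fell at the adjusted threshold (1.99% of genes), and it was not Rpl3l. Rpl36a was at up to 3.14 CPM in Sham Veh and at 3.99, 4.33 and 3.18 CPM in TAC Veh, so all TAC Veh libraries lay above all Sham Veh libraries. This held for 6 of the 84 members, and the reverse for 0, against 27.6 and 2.23% of all genes tested. Its log2 fold change was 0.79 (limma adjusted p = 0.0619), but −0.22 once its 4 copies were summed. The stalk genes Rplp0, Rplp1 and Rplp2 had log2 fold changes of 0.17, 0.22 and −0.14. Rps6, the small-subunit protein phosphorylated by S6 kinase, had −0.23, Rpl5 −0.03, Rpl11 −0.10, the Diamond-Blackfan gene Rps19 0.16 and the laminin receptor Rpsa 0.19, with adjusted p of 0.377 or more in limma.

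TAC 29P was next compared with Sham 29P, a pair of groups that shares no library with the Veh groups. At an adjusted p of 0.05 or less, 38 of 84 members rose and 0 fell, beside 31.4 and 1.12% of all genes tested (limma). The 38 were 22 of 46 core large-subunit genes, 14 of 31 core small-subunit genes and both Rpl7l1 and Rps19bp1, with log2 fold changes from 0.36 to 1.04, and 0 of 5 paralogues and retrogenes. At an unadjusted p of 0.05 or less 52 were higher and 0 lower, against 43.5 and 1.96% of genes. The median of the members was 0.41 and that of all genes 0.37. In 16 members all TAC 29P libraries lay above all Sham 29P libraries, and in 0 below, against 25 and 1.08% of all genes tested. With TMM factors the medians were 0.05 and 0.02, and 1 member rose (Rpl3) and 1 fell (Rpl3l), at backgrounds of 5.74 and 4.98%. The call of 38 rested on library S14 of Sham 29P: without it 1 member rose (Rpl13), and the background fell to 6.45%. Without S3 of TAC 29P 19 rose (background 19.9%). Runs of nearby numbers in the column names, 4 in all, were also used as a covariate, though the labels do not call them batches. With this covariate 0 rose at the adjusted and 30 at the unadjusted threshold (backgrounds 4.19 and 28.9%).

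Rpl3 again had the smallest adjusted p among the members. It was at 19.3 CPM in S4, 11.1 in S14 and 15.8 in S15 and at 25.4 to 40.7 CPM in the TAC 29P libraries, with a median of 26.9, so all 6 lay above all 3 Sham 29P libraries. The log2 fold change was 0.94 (SE 0.21, limma adjusted p = 0.00579), and the exact permutation p of 0.0119 is as low as 84 splits permit. It was 0.58 with TMM factors (limma adjusted p = 0.0380) and 0.72 without S14 (limma adjusted p = 0.0549). Rpl3l was at 149.9, 96.0 and 151.1 CPM in Sham 29P and at 90.7 to 128.7 CPM in TAC 29P, with a median of 114.5. Here S14 lay among the TAC libraries, and the log2 fold change of −0.22 did not pass the test (limma adjusted p = 0.345). After division by the TMM factor, Rpl3l was at 122.6 to 175.1 in Sham 29P and at 80.5 to 122.2 in TAC 29P, with a log2 fold change of −0.58 (limma adjusted p = 0.0322).

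Among the members with the largest changes, Rps10, Rpl27 and Rps7 were lowest in S14. Rps10, a small-subunit protein, was at 36.3, 6.24 and 23.0 CPM in S4, S14 and S15 and at 21.6 to 45.5 CPM in TAC 29P (median 36.5). Its log2 fold change was 1.04 (SE 0.39, limma adjusted p = 0.0491) and 0.31 without S14. Rpl27 was at 4.43, 1.55 and 4.65 CPM in Sham 29P and at 5.54 to 7.73 CPM in TAC 29P (median 6.42), without overlap. Its log2 fold change was 1.02 (limma adjusted p = 0.0145) and 0.51 without S14 (limma adjusted p = 0.122). Rps7, at 32.1, 10.02 and 31.5 CPM against 30.8 to 48.1 CPM, changed by 0.89 and by 0.33 without S14, and Rpl36a by 0.87 and 0.51. Of the stalk genes, Rplp0 and Rplp1 rose by 0.65 and 0.72 (limma adjusted p = 0.0257 and 0.0117), and Rplp2 had 0.28 (limma adjusted p = 0.217).

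**Figure D3:**
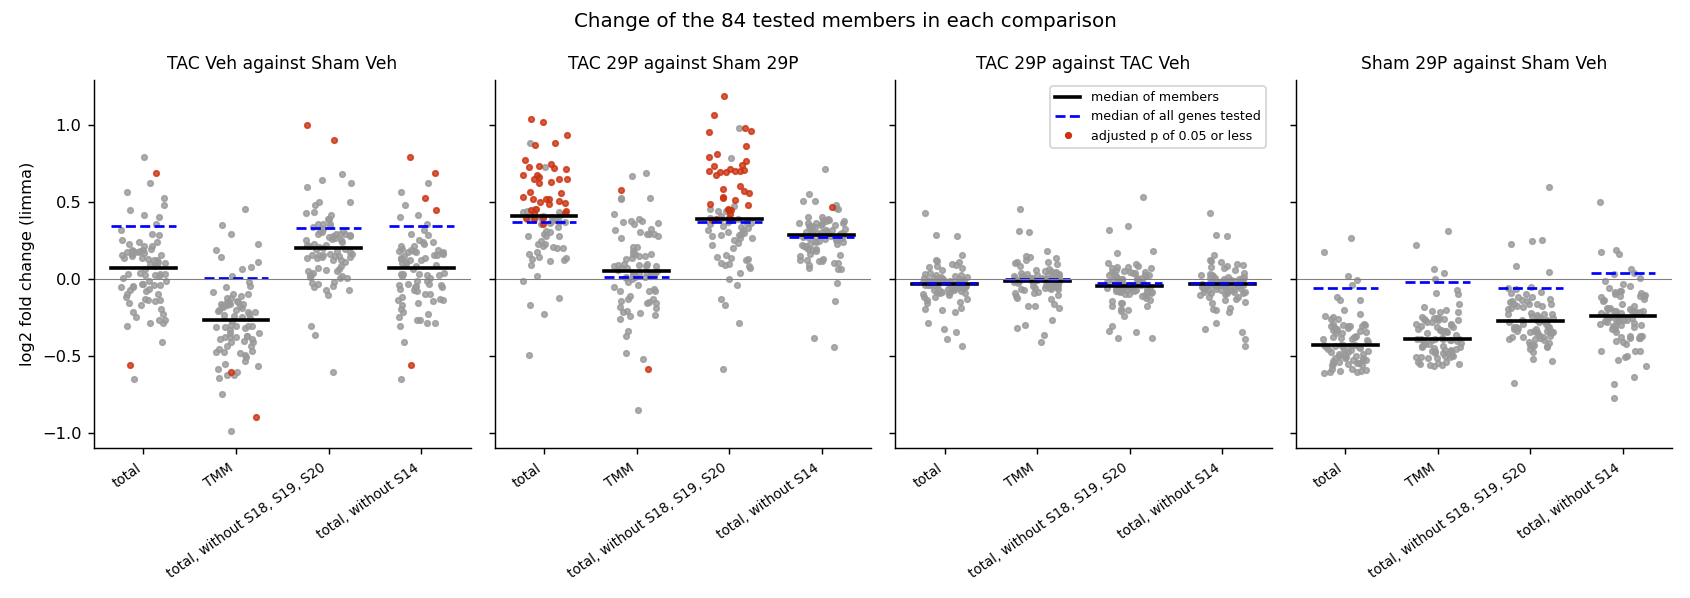
Each panel is a comparison, and each point the log2 fold change of 1 of the 84 members (y axis) under the fit named on the x axis. Red points have an adjusted p of 0.05 or less, black lines are the median of the members and dashed blue lines the median of all genes tested. In TAC 29P against Sham 29P the 38 red points under total scaling shrink to 2 with TMM factors and to 1 without S14, and in TAC Veh against Sham Veh the black line lies below the blue line in each fit.

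The effect of 29P within TAC was asked by comparing TAC 29P with TAC Veh. Both groups also enter a comparison above. No member passed the test: 0 of 84 were higher or lower at an adjusted p of 0.05 or less, and 0 at an unadjusted p of 0.05 or less, where 1.05 and 0.931% of all genes tested were higher and lower (limma). The median log2 fold change was −0.03 for the members and −0.02 for all genes. The 3 smallest p-values in limma were those of Rpl9 (−0.43, SE 0.22, exact permutation p = 0.107), Rpl12 (−0.38, SE 0.21, exact permutation p = 0.167) and Rps13 (−0.34, SE 0.21, exact permutation p = 0.0238). Of these core proteins 1.32, 3.91 and 2.297% of the family lay on the member. Rpl9 was at 4.74, 5.68 and 6.74 CPM in TAC Veh and at 3.25 to 5.84 CPM in TAC 29P, and with copies summed its log2 fold change was 0.01. Rpl3 had −0.19 (SE 0.21, exact permutation p = 0.405) and Rpl3l 0.29 (SE 0.18, exact permutation p = 0.143). The 6 TAC 29P values of both genes spanned those of TAC Veh S12, and for Rpl3l S2 and S16 lay below all 6.

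Within Sham, 81 of 84 members had a negative log2 fold change with 29P. Both groups are the controls of the TAC comparisons above. None passed at an adjusted p of 0.05 or less, with 0 higher and 0 lower beside 0.00617% of genes lower, while at an unadjusted p of 0.05 or less 0 were higher and 43 lower, beside 1.60 and 5.89% of genes (limma). The median log2 fold change was −0.43, against −0.06 over all genes, and −0.38 with TMM factors, where 42 were lower (background 5.61%). Rpl6, a core protein of the large subunit, was at 66.3, 84.5, 76.9, 96.7 and 98.7 CPM in Sham Veh and at 60.01, 50.7 and 69.99 CPM in Sham 29P, with a log2 fold change of −0.49 (SE 0.14, limma adjusted p = 0.651, exact permutation p = 0.0536). Only S15 reached into the Sham Veh range. Rpl32 had −0.55 (SE 0.18), with the same adjusted and exact permutation p as Rpl6.

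These lower values moved with particular libraries. S19 and S20, with atrial transcripts, held the highest Rpl6, and S14, the shallowest library, the lowest. The count of 43 became 67 with copies summed (background 5.56%), 58 without S5 (6.18%), 53 without S15 (6.97%) and 52 without S4 (15%). It became 3 without S14 (background 1.72%), 30 without S19 (4.94%) and 25 without S20 (3.59%). Without S18, S19 and S20 it was 1 (2.79%), with a median of −0.27. Without these 3 and S14 the count was 0 (1.56%) and the median −0.11, beside 0.03 over all genes. The 29P effect in TAC minus that in Sham passed the adjusted threshold for 0 members (0.00617% of genes higher, 0 lower), and was higher in 6 and lower in 0 at an unadjusted p of 0.05 or less, beside 1.98 and 0.863% of genes (limma). The 6 became 11 with TMM factors (2.38%), 0 without S14 (1.11%) and 22 without S5 (2.51%), the lowest and highest counts when single libraries were left out. The median over the members was 0.39, and 0.08 without those 4 libraries.

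The balance within the Rpl3 pair does not depend on library scaling. The ratio of Rpl3 with its copies to Rpl3l was 1.02, 1.39, 1.05, 2.34 and 1.49 in Sham Veh (S5, S6, S13, S19, S20), 1.04, 1.09 and 0.97 in Sham 29P (S4, S14, S15) and 4.10, 2.03 and 3.78 in TAC Veh (S2, S12, S16). In TAC 29P it ranged from 1.76 to 3.77 around a median of 2.19. All 9 TAC libraries lay above 7 of the 8 Sham libraries, the exception being S19, a library with atrial transcripts. Mean ratios were 1.46 ± 0.53 (SD, n = 5), 1.03 ± 0.06 (SD, n = 3), 3.30 ± 1.11 (SD, n = 3) and 2.43 ± 0.81 (SD, n = 6). Since both genes were chosen among the members for their paralogy and with their changes known, the ratio is a description with no test. The summed fibroblast markers were highest in S18, S3 and S2, libraries with a ratio of 2.91, 3.77 and 4.10, and their part in the ratio was not tested.

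**Figure D4:**
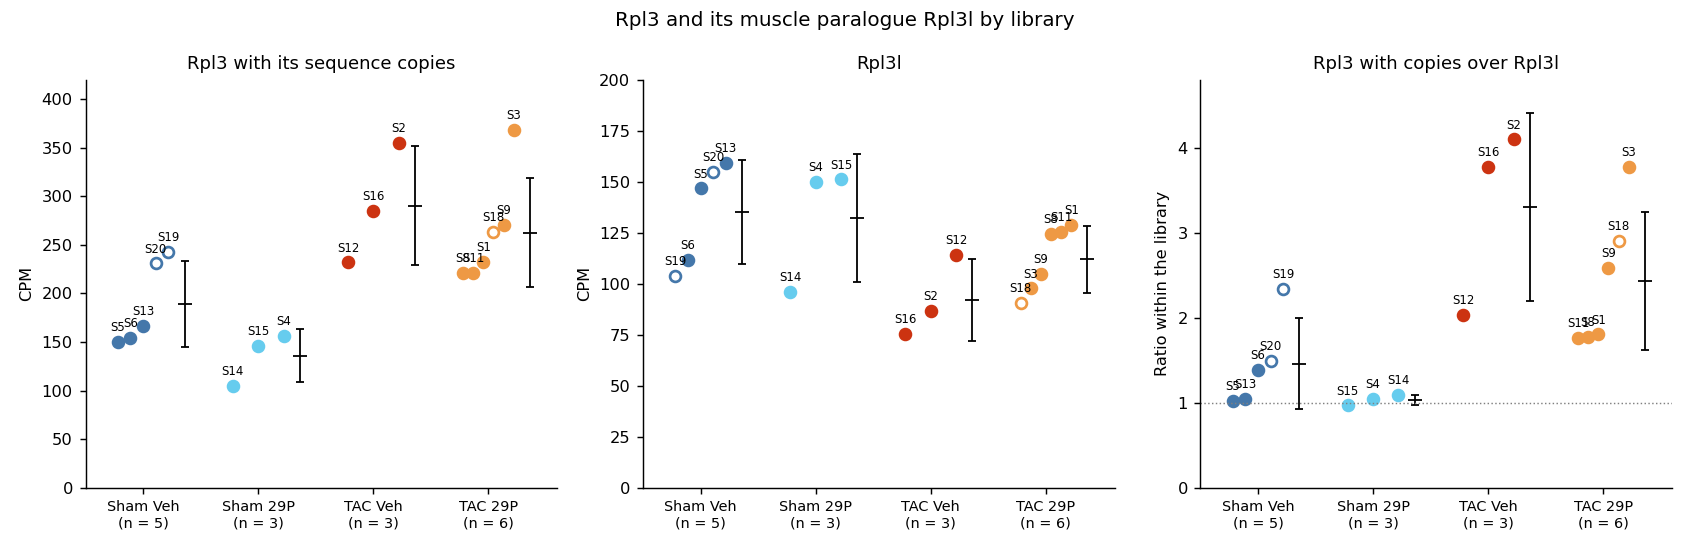
CPM of Rpl3 with its sequence copies (left), CPM of Rpl3l (middle) and their ratio within each library (right, dotted line at 1). Points are libraries, open where atrial transcripts were present, and bars are mean and SD. The Sham 29P ratios sit between 0.97 and 1.09, and the TAC Veh ratios between 2.03 and 4.10.

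Members did not deviate evenly in the libraries that stood apart. For each of the 84 members tested, the deviation of its log2 CPM (copies summed) from its mean over the 17 libraries was set against the GC content of its transcript. Spearman's rho across members was −0.64 in S14, −0.60 in S19, −0.59 in S18, −0.47 in S6, −0.37 in S15 and −0.26 in S16, and between 0.03 and 0.61 in the other 11. Members are not independent points, since they share library and depth, and no p is given. The CPM of single members in the examples here are on the member rows, without copies. In S14, Rplp0 (52.9% GC) was at 145.0 CPM against 360.6 and 289.0 in the other Sham 29P libraries. By contrast, Rpl22l1, with the lowest GC of the members (40.6%), was at 26.9 against 11.8 and 18.1 CPM. Rpl39, a short protein of the exit tunnel (48.7% GC), was at 44.9 against 21.0 and 29.4 CPM. Rpl38, at 53.8% GC, was the member furthest above its mean in S14 (by 0.97 on the log2 scale, copies summed), so the examples do not all follow GC. Of the 84 members, 79 were below their mean in S14 and 5 were not. In S11 of TAC 29P, with the highest rho, Rpl39 was at its lowest of all libraries (17.8 CPM).

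**Figure D5:**
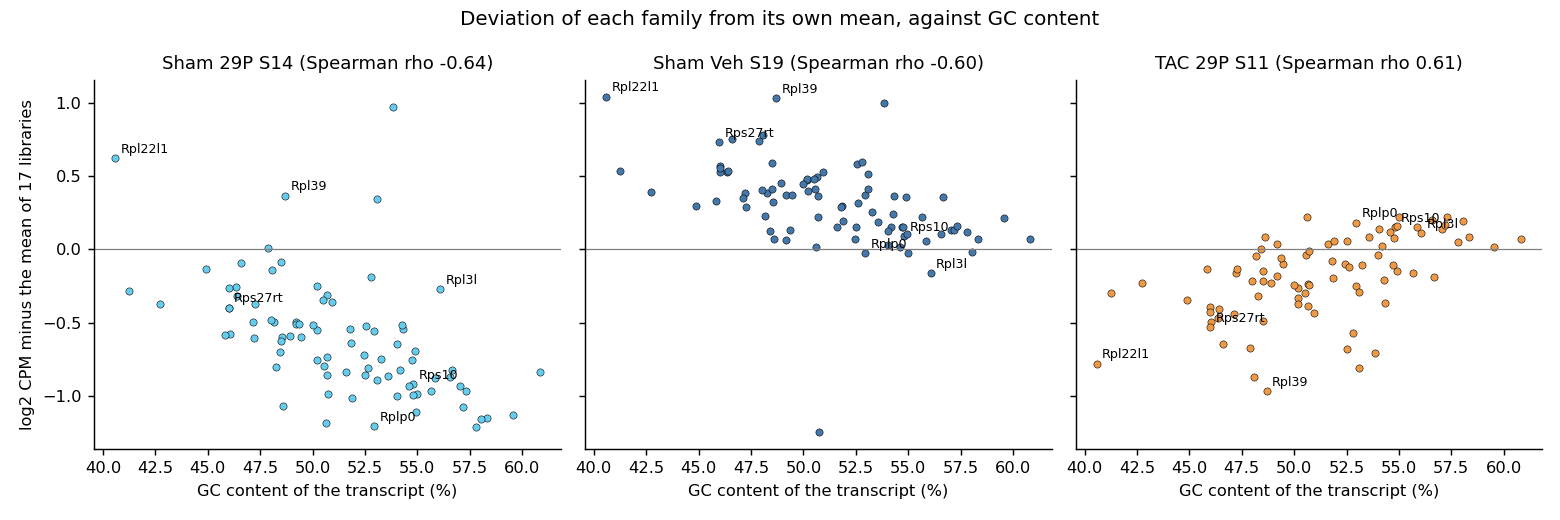
Deviation of each family (member with its copies, log2 CPM minus the mean of 17 libraries, y axis) against the GC content of the member's transcript in percent (x axis) in S14, S19 and S11. The cloud falls from left to right in S14 and S19 and rises in S11, with rho of −0.64, −0.60 and 0.61.

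A feature of the members that no expression value enters is the start of their mRNA. RefSeq promoters (GRCm38.p6) were found for 66 of the 86 members, with 78 annotated starts. A TOP tract, searched as a C at the first base followed by 4 bases that are each C or T on the sense strand only, was at 14 of the 78 starts (17.9%), against 2.51% of all 32851 RefSeq starts. Windows of 30 bases around the start, with the run of C and T from the first base in capitals, are shown for 4 members with the tract and for Rpl3l. Rpl3l lacks it, as do most of the member starts searched.
Rps6 (chr4:86857353-86857382, minus strand): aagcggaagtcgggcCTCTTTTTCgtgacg
Rpl35 (chr2:39005117-39005146, minus strand): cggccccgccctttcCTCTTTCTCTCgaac
Rpl15 (chr14:18270972-18271001, minus strand): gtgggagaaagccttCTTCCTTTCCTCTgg
Rplp2 (chr7:141447636-141447665, plus strand): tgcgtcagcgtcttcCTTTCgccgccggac
Rpl3l (chr17:24727811-24727840, plus strand): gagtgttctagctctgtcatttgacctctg
A start annotated a few bases away from the true one hides the tract, so a missing match says only that these letters are not at the annotated base. Rpl3 has no entry.

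The genes that build and run ribosomes were counted in the same fits. In TAC Veh against Sham Veh, 1 of 12 genes of RNA polymerase I, 6 of 42 ribosome biogenesis factors, 6 of 34 initiation factors, 0 of 12 elongation and termination factors (3 at an unadjusted p of 0.05 or less) and 6 of 20 regulators of mTORC1 and TOP mRNAs rose at an adjusted p of 0.05 or less in limma, and 0 fell, where 22.5% of all genes rose. Their median log2 fold changes were 0.32, 0.23, 0.19, 0.25 and 0.37, beside 0.08 for the ribosomal proteins and 0.35 for all genes. Pabpc1, the poly(A)-binding protein whose mRNA is itself of the TOP class, rose from a mean of 109.5 to 182.1 CPM, with a log2 fold change of 0.72 (SE 0.12, limma adjusted p = 0.00181). Eif4ebp1, the translation repressor that mTORC1 inactivates, rose from 30.4 to 53.7 CPM (0.83, limma adjusted p = 0.0172), and Myc, a transcription factor for ribosome biogenesis genes, from 2.64 to 6.44 CPM (1.33, limma adjusted p = 0.0401). Bop1, a factor in 60S subunit assembly, rose from 10.3 to 16.8 CPM (0.72, limma adjusted p = 0.0260). These 4 genes were named after their values were seen. With TMM factors Pabpc1 had 0.38 (limma adjusted p = 0.0307), and Eif4ebp1 (0.49), Myc (0.99) and Bop1 (0.39) missed the threshold, with adjusted p of 0.115, 0.160 and 0.157 in limma. In TAC 29P against Sham 29P, 5, 18, 14, 4 and 7 genes of these lists rose, where 31.4% of all genes did. With TMM factors, 0, 0, 1, 0 and 0 rose and 1, 2, 4, 0 and 0 fell in TAC Veh against Sham Veh. The shares of all genes were 3.87 and 5.8%. In TAC 29P against Sham 29P, 0, 2, 0, 0 and 0 then rose and 0, 2, 2, 0 and 2 fell. Here the shares of all genes were 5.74 and 4.98%, so these counts also depend on the scaling. Between TAC 29P and TAC Veh, 0 genes of these lists passed the adjusted and 0 the unadjusted threshold. At the latter, 1.05% of all genes were higher and 0.931% lower.

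Of 3 ribosomal proteins tested whose symbols fall outside the rule, 2 rose in TAC 29P against Sham 29P, where 31.4% of all genes did. With TMM factors 0 rose, against 5.74% of all genes. Without S14 the share of all genes fell to 6.45%, and no count of these 3 proteins is given there. Rack1, a scaffold on the small subunit, had a mean of 241.9 CPM in Sham Veh, 186.3 in Sham 29P, 291.4 in TAC Veh and 285.4 in TAC 29P. Its log2 fold change between TAC 29P and Sham 29P was 0.66 (SE 0.18, limma adjusted p = 0.0137), and 0.31 with TMM factors (limma adjusted p = 0.153). Fau had 0.55 (limma adjusted p = 0.0358), and 0.20 with TMM factors (limma adjusted p = 0.392). In TAC Veh against Sham Veh they had log2 fold changes of 0.27 and 0.35, with adjusted p of 0.269 and 0.185 in limma.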

How the data were processed

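The libraries used here hold bulk RNA of the left ventricular apex of 17 mice. Per the labels, STAR 2.3.7, Partek and the build mm10 were used. The values the authors deposited are CPM, each raised by 0.0001. The counting tool, its treatment of reads with several matches and the strand setting are not given in the sources used here. Because only 81.6 to 83.7% of low values were whole multiples of 1 read (tolerance 0.05), counts could not be recovered, and the edgeR test named in the design was replaced by limma 3.58.1 (R 4.3.3) on log2 of the deposited CPM, with 1 mean per group over all 17 libraries and a variance trend. Genes at 0.5 CPM or more in at least 3 libraries were tested, and p-values were adjusted by Benjamini-Hochberg over all of them. For single members an exact permutation test (two-sided) was added. TMM trimmed 30% of log ratios and 5% of levels. Copies were found with blastn 2.17.0 among GENCODE vM21 transcripts, the source of gene coordinates, and each was assigned to its best match. Other steps used Python 3.11.15, scipy 1.17.1 and Biopython 1.88. The fit was tested on simulated data. Estimated depth was 14.2 to 23.8 M reads per library, which limits precision at low levels. The p-values rest on the spread between libraries of different mice, in which animal, tissue sampling and library differences cannot be told apart. Named members were paralogues, stalk and non-ribosomal members, the 5 largest changes each way past the threshold per comparison (or the 3 smallest p), Rps6, Rps19, Rpl5, Rpl11, Rpsa and the highest and lowest level per kb. A few genes that this rule or the lists hold are not reported here. Members and lists were chosen with earlier results of these data known.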

Additional observations from a re-analysis of the deposited data

Results flagged for a closer look

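In the groups of 5 and 6 libraries, a gap test for a single distant sample (Dixon) picked 3 of 70 groups of values. Chance picks about 1 in 20. Rpl27 was at 3.63 CPM in Sham Veh S19, a library with atrial transcripts, below 4.88 CPM in the nearest of the other 4. Rpl3 was at 40.7 CPM in TAC 29P S3, above 29.3 CPM in the nearest library. Rps19 was at 48.5 CPM in the same library, above 36.2 CPM. S3 also had the highest summed level of the members.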

How the results depend on the processing

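No paired analysis was possible because the groups compared share no mouse. The planned count-model alternatives, DESeq2 among them, were not run, since the values are CPM. In TAC Veh against Sham Veh, the 1 higher member (22.5% of genes) became 6 at an unadjusted p (37.4%) and 0 with TMM factors (3.87%). The count was also 0 with median-of-ratios factors or a total without mitochondrial genes. It was 2 with a constant of 1 or a filter of 1 CPM in every library, and 3 with only the groups compared. It became 0 with copies summed and TMM factors, 2 without the libraries with atrial transcripts (13.8% of genes, and 0 members with TMM factors as well), and 9 without these and S14 (23.9% of genes). The 1 lower member (1.91% of genes) became 2 with TMM factors (5.8%), median-of-ratios factors, or copies summed and TMM factors. It became 0 with no filter, only the groups compared, the run covariate, or without the libraries with atrial transcripts, copies summed or not. The median of 0.08 became −0.26 with TMM factors, −0.25 with median-of-ratios factors, −0.32 with copies summed and TMM factors, and −0.14 with TMM factors without the libraries with atrial transcripts. Leaving out each of the 8 libraries compared in turn gave 0 to 2 higher, 0 to 1 lower and medians of −0.00209 to 0.17. The share of all genes that rose was then 2.68% (without S2) to 26.3% (without S5). Leaving out S14, which enters only the shared spread, gave 4 higher (29.4% of genes), and S9 likewise 0 lower.

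In TAC 29P against Sham 29P, the 38 higher members (31.4% of genes) became 1 with TMM factors (5.74%) and 0 with the run covariate (4.19%). The count was also 1 with median-of-ratios factors or with copies summed and TMM factors. It was 6 with a total without mitochondrial genes, 2 with TMM factors without the libraries with atrial transcripts, and 3 without these and S14. At an unadjusted p, 7062 genes were higher with all libraries and total scaling. In these other fits there were 2484, 2473, 4457, 2827 and 4726, in this order. The 0 lower (1.12% of genes) became 1 in each of the 4 fits with TMM or median-of-ratios factors (4.98% with TMM factors). The median of 0.41 became 0.053 with TMM and 0.049 with median-of-ratios factors. It was 0.058 with copies summed and TMM factors, and 0.040 with TMM factors without the libraries with atrial transcripts. Leaving out single libraries gave 1 higher (without S14, 6.45% of genes) to 42 higher (without S4, 39.8%), and medians of 0.29 to 0.50. In Sham 29P against Sham Veh, 43 were lower at an unadjusted p (5.89% of genes). The median of −0.43 became −0.23 with TMM factors without the libraries with atrial transcripts. It was −0.11 without these and S14, and −0.49 to −0.24 without single libraries. The 29P effect in TAC minus that in Sham was higher in 6 members at an unadjusted p (1.98% of genes). Its median of 0.39 became 0.083 without those 4 libraries (0.20 to 0.48 without single libraries). For TAC 29P against TAC Veh, medians without single libraries were −0.11 to 0.03.

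With copies summed, Rpl36a in TAC Veh turned to −0.22 (−0.56 with TMM factors as well) and Rpl9 in TAC 29P against TAC Veh to 0.0074 (0.033). With copies summed and TMM factors, Rpl36a turned to −0.16 and Rps7 to −0.14 in TAC 29P against Sham 29P. The causes were not tested.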
